A study of Homo sapiens with 20 samples.

Results

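The transcriptome of HT29 cells after silencing of POLR1D was examined in 8 of the 20 RNA-seq libraries of the series, which comprise all of its HT29 libraries. HT29 is an established colorectal cancer cell line that carries a focal amplification of 13q12.2, the region in which POLR1D lies. The cells had been reverse transfected with a scrambled control siRNA (SCR, 4 libraries) or with siPOLR1D2 or siPOLR1D3, siRNAs directed against POLR1D (2 libraries each), and the study pooled both siRNAs against SCR in order to ask which genes respond to loss of POLR1D. The other 12 libraries are from SW480, another colorectal cancer line, and were used to test whether a response differed between the lines. A transfected line is a pool of silenced and unsilenced cells, and fewer affected cells cannot be told apart from a smaller change per cell. The labels number the replicates but do not say whether they came from separate cultures, so that p values measure the spread between these libraries, which may be technical.

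Each value is a normalized read count, scaled by the authors within a cell line. The values sum to between 17.6 and 21.1 M per HT29 library, with the highest sum in SCR replicate 1. The estimated reads per library were 14.2, 16.1, 21.0 and 20.3 M in SCR replicates 1 to 4, 22.8 and 22.8 M in siPOLR1D2, and 20.4 and 13.5 M in siPOLR1D3. Of 36346 gene names, 13274 had a value of 10 or more in at least 4 of the 8 libraries and were tested. A gene was taken as outside the SCR range when its 4 silenced values were all below, or all above, its 4 SCR values. This was the case for 914 genes.

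POLR1D is a subunit shared by RNA polymerase I, which transcribes ribosomal RNA, and RNA polymerase III, which transcribes transfer RNA and 5S ribosomal RNA. Many of the genes described here belong to stress pathways. In the integrated stress response, phosphorylation of the initiation factor eIF2 reduces general translation and favours translation of ATF4, a transcription factor that induces genes of amino acid uptake and synthesis, tRNA charging and the CHOP (DDIT3) branch. The unfolded protein response of the endoplasmic reticulum (ER) shares this arm and adds those of ATF6 and of IRE1 with XBP1, which induce chaperones and folding enzymes of the ER.

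The libraries carried the epithelial markers of a colorectal line. EPCAM ranged from 22402 to 28730, KRT8 from 78841 to 108488 and CDH1 from 14564 to 30141. CDX2, a homeobox factor of the intestinal epithelium that also lies in 13q12.2, was listed at 0.46, 0, 0 and 0.28 in SCR replicates 1 to 4. In these values the marker was close to absent, whereas the paper describes CDX2 as expressed in HT29 and its knockdown there as successful. The cause of this difference was not tested. CDX2 was at 7.28 and 4.76 in siPOLR1D2 and 7.91 and 3.96 in siPOLR1D3, all above the SCR libraries but below the minimum for testing. The mesenchymal markers VIM and ZEB1 did not exceed 76.3 and 93.5. Of 10 immune markers, between 3 and 5 per library had a value of 10 or more. The summed immune level ranged from 22293 in SCR replicate 1 to 32509 in SCR replicate 4 and was almost entirely LYZ (22198 to 32382), a lysozyme that secretory epithelial cells also make. CD3E, CD3D, MS4A1 and NKG7, which define lymphocytes, did not exceed 2.87 in any library. The 10 fibroblast and endothelial markers summed to between 71.8 and 209, led by ACTA2, and LUM, DCN and COL3A1 did not exceed 4.51.

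SCR replicate 1 stood apart from the other libraries before any comparison of groups. On the first principal component, which held 43.3% of the variance, it lay at -88.3 and SCR replicate 2 at -18.7, while the other 6 libraries lay between 15.1 and 21.1. On the second component (15.3%) siPOLR1D2 replicate 1 lay at 40.9 and SCR replicate 4 at -35.9. Across the genes tested, which are not independent replicates, SCR replicate 1 correlated with the others at 0.932 to 0.956 (Pearson's r of log2 values). It was the highest of the 4 SCR libraries for 36.6% of genes and the lowest for 34.6%. In 468 genes it was more than 1 log2 unit above every other SCR library and in 782 more than 1 below. For the other SCR libraries these counts were at most 76 and 134. Among the silenced libraries, siPOLR1D2 replicate 1 was more than 1 log2 unit below the other silenced libraries in 415 genes, and the others in at most 98.

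**Figure D1:**
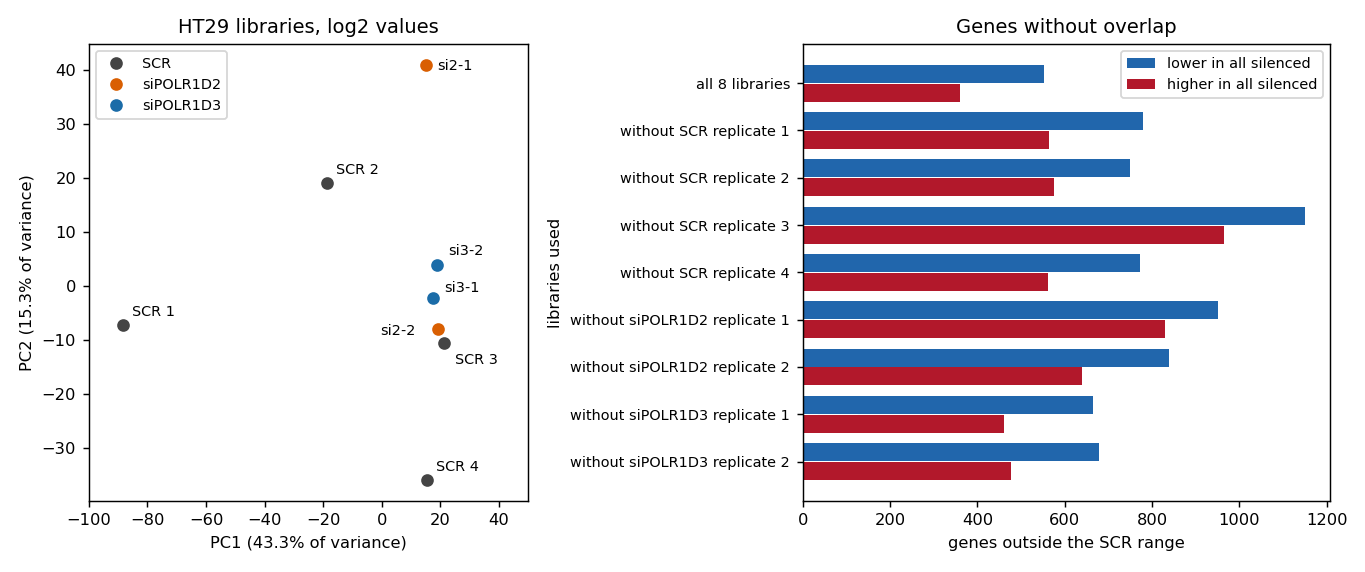
Left, the 8 HT29 libraries on the first and second principal components of log2 values, where SCR replicate 1 lies at -88.3 on the first and siPOLR1D2 replicate 1 (si2-1) at 40.9 on the second. Right, bars give the number of genes with all silenced libraries below (blue) or above (red) all SCR libraries, from 553 and 361 with all 8 libraries to 1151 and 966 without SCR replicate 3.

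POLR1D itself had values of 6036, 4711, 4433 and 5009.6 in SCR replicates 1 to 4. It had 3414 and 3492 in siPOLR1D2, and 2858 and 2549.6 in siPOLR1D3. All silenced libraries lay below all SCR libraries, and siPOLR1D3 lay below siPOLR1D2. The log2 fold change, on the scale of log2(value + 1), was -0.72 (SE 0.14, adjusted p = 0.355 from limma over all genes). It was -0.63 (SE 0.12, adjusted p = 0.264 from limma) without SCR replicate 1. The exact permutation test, 2-sided, gave p = 0.0286, the smallest that 4 libraries against 4 allow. The gene spans chr13:27620742-27744237 on the plus strand (hg38, GENCODE release 29). Of 20 genes listed for this region, 11 were tested. LNX2, the nearest neighbour, had a log2 fold change of -0.14 (SE 0.13), and PAN3, POMP and USP12 had 0.02, 0.09 and 0.08, all with overlapping groups. GTF3A, the RNA polymerase III factor TFIIIA, was higher in all silenced libraries by a narrow margin (5607 to 5981 in SCR and 6059 to 6194 in silenced libraries), and this order was lost with upper quartile scaling.

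Across the transcriptome, 553 genes (4.17% of those tested) were lower in every silenced library than in every SCR library, and 361 genes (2.72%) were higher. The median log2 fold change was -0.47 in the lower and 0.51 in the higher genes, against 0.00 over all genes. It was beyond -1 in 56 of the lower and beyond 1 in 52 of the higher genes. The gap between the nearest silenced and SCR libraries was small, with a median of 0.075 in the lower and 0.078 in the higher genes (log2). Lying outside the SCR range therefore often rested on a narrow margin. Of the lower genes 7 were under 10 in every silenced library, and of the higher genes 9 were under 10 in every SCR library, so that these passed the minimum for testing only through the group in which they were high and had to differ. The split between directions depended on scaling. Of the genes outside the SCR range, 60.5% were lower as deposited, 33.9% with upper quartile scaling (282 lower, 2.12% of those tested, and 550 higher, 4.14%) and 50.4% with quantile normalization (447 lower, 3.37%, and 440 higher, 3.31%). Under all 3 scalings, 233 genes were lower and 250 higher. In limma's moderated test none of the 13274 genes passed the adjusted threshold of 0.05 (0%), the smallest adjusted p was 0.316, and 1422 genes had an unadjusted p under 0.05. The genes below are therefore described by their values, and no change is claimed for any of them.

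Leaving out SCR replicate 1 gave 780 lower (5.88%) and 564 higher genes (4.25%). Leaving out a library can only add such genes. SCR replicates 2 and 4 added nearly as many, with 750 and 575 genes without replicate 2 and 772 and 562 without replicate 4. SCR replicate 3 added more, with 1151 lower and 966 higher genes without it, and leaving out siPOLR1D2 replicate 1 or 2 gave 951 and 830 or 840 and 640. Among the 553 lower genes, SCR replicate 1 was the highest SCR library in 345 (62.4%), and SCR replicate 3 the lowest, and thus nearest to the silenced libraries, in 280 (50.6%). Among the 361 higher genes, SCR replicate 1 was the lowest SCR library in 181 (50.1%), and SCR replicate 3 the highest in 142 (39.3%). Over all genes tested, SCR replicate 3 was the lowest SCR library in 23.1% and the highest in 22.3%. Without SCR replicate 1 the median log2 fold change of these same genes was -0.37 and 0.42.

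Among genes with a mean value of 100 or more over the 8 libraries, the 12 lower genes with the widest gap between the groups included SLC1A4 of the list of amino acid transporters, and DDIT4 and CHAC1 of that of the integrated stress response. LAMP3, a lysosomal membrane protein that is in none of the lists, had 914, 34.8, 17.8 and 37.8 in SCR and between 1.55 and 4.36 in silenced libraries. It passed the minimum for testing only through the SCR libraries, so it had to differ and no fold change is given. SLC1A4, a transporter of alanine, serine and cysteine, had 1774, 729.5, 319 and 449 in SCR, and 109, 188, 193 and 187 in silenced libraries (log2 fold change -1.99, SE 0.46). DDIT4, an inhibitor of mTORC1 signalling, had 1167, 999, 286 and 405 in SCR and 108, 156, 146 and 173 in silenced libraries (-2.07, SE 0.42). CHAC1, which degrades glutathione, had 414, 333, 100.4 and 159.8 in SCR and 38.0 to 61.1 in silenced libraries (-2.18, SE 0.42). In all 4 genes SCR replicate 1 was the highest and SCR replicate 3 the lowest of the SCR libraries.

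The remaining 8 of these 12 genes included ANKRD30BL, which had 618, 652, 693 and 712 in SCR and 192 to 368 in silenced libraries, with a log2 fold change of -1.22 (SE 0.21) that was -1.26 without SCR replicate 1. WDR74, which acts in maturation of the large ribosomal subunit, had 3105, 2639, 2178 and 2340.1 in SCR, and 1517 and 1262 in siPOLR1D2 and 1251 and 972 in siPOLR1D3 (-1.04, SE 0.16). The zinc finger gene ZNF354B had 996 to 1544 in SCR and 430.1 to 654 in silenced libraries (-1.14, SE 0.18). GPX8, a peroxidase of the ER, had 107 to 209.9 in SCR and 41.5 to 74.7 in silenced libraries (-1.57, SE 0.28). UBOX5, AC011604.2, SLFN5 and APOL6 completed the 12, with log2 fold changes between -0.86 and -1.56. KLF6, a zinc finger transcription factor with a narrower gap, had 3081, 3533, 2797 and 2492 in SCR and 1542 to 1884 in silenced libraries (-0.77, SE 0.13). ANKRD30BL, ZNF354B, WDR74 and KLF6 were among the 10 genes with the smallest p in limma (adjusted p = 0.316 each).

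**Figure D2:**
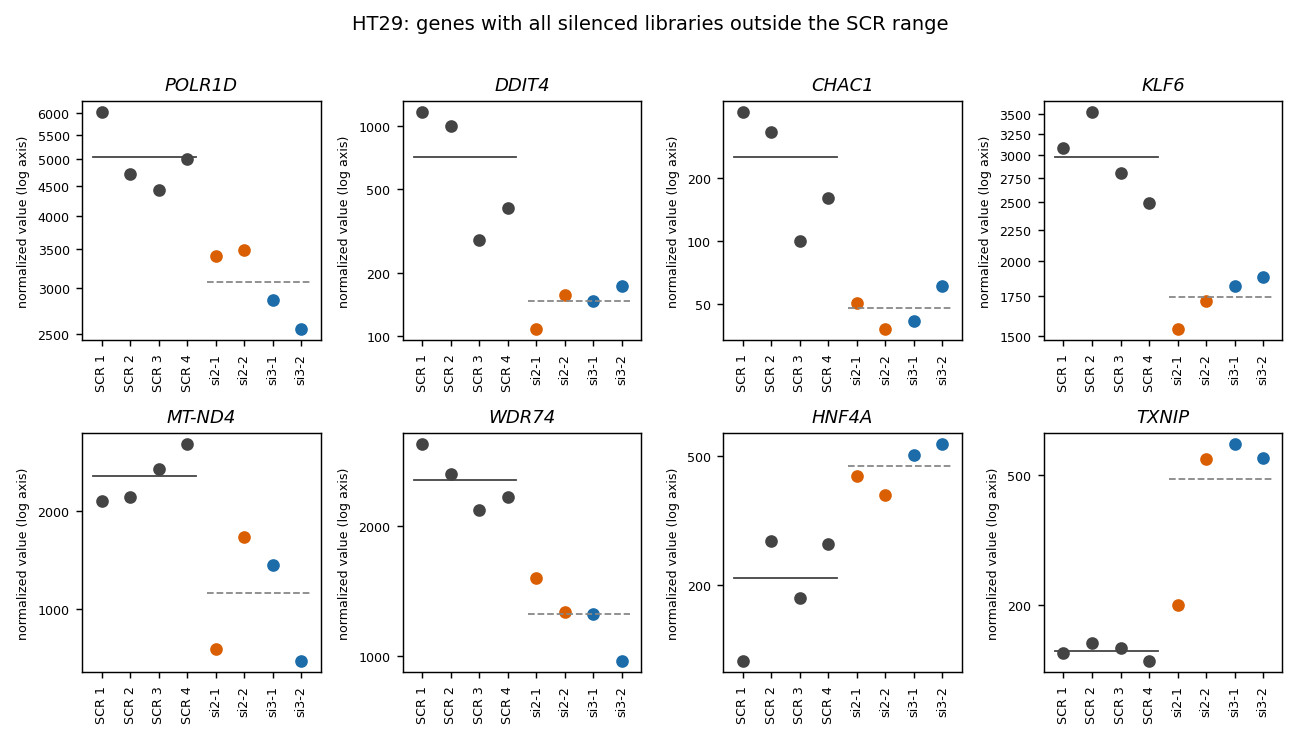
Normalized values (log axis) of 8 genes in each HT29 library, with a point per library, SCR in grey, siPOLR1D2 (si2) in orange and siPOLR1D3 (si3) in blue. Solid and dashed lines mark the means of SCR and silenced libraries. In POLR1D the SCR libraries lie at 4433 and above and the silenced libraries at 3492 and below, whereas in TXNIP siPOLR1D2 replicate 1 (199) lies nearer to SCR than the other silenced libraries.

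Of 18 tested genes of the integrated stress response, 7 were lower in all silenced libraries, against 4.17% of all genes, and 1 was higher, against 2.72%. The median log2 fold change of the list was -1.52, and 17 of 18 were negative. The counts were also 7 and 1 without SCR replicate 1, against 5.88% and 4.25% of all genes, and the median was then -1.24. ATF4 had 5698, 4757, 3308 and 4553 in SCR and 2559.7 to 3002 in silenced libraries (-0.71, SE 0.16). DDIT3 (CHOP) had 2061, 1175, 102 and 231 in SCR and 77.3 to 94.1 in silenced libraries (-2.55, SE 0.80). SESN2, VLDLR and JDP2 were also lower, with log2 fold changes of -1.68, -1.69 and -1.36, although SESN2 overlapped with quantile normalization and JDP2 with upper quartile scaling. In SESN2 the nearest libraries were almost equal, at 91.09 in SCR replicate 3 and 91.08 in siPOLR1D2 replicate 1. ATF3, chosen after its values were seen, had 725, 314, 34.0 and 142 in SCR and 16.0 to 34.6 in silenced libraries, so that only SCR replicate 3 overlapped. ATF5, whose translation is also under control of eIF2, was the member that was higher, with 64.6, 83.8, 111 and 127 in SCR and 168 to 181 in silenced libraries (0.90, SE 0.22). Relative to each gene's median over the 8 libraries, the list stood at 2.06, 1.67, -0.01 and 0.70 (log2) in SCR replicates 1 to 4 and between -0.27 and -0.13 in silenced libraries. SCR replicate 3 was the SCR library nearest to the silenced libraries.

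Lists of amino acid supply had smaller differences. Of 13 tested amino acid transporters, 2 were lower (SLC1A4 and SLC38A2) and none higher, against 4.17% and 2.72% of all genes here and for the lists that follow, with a median of -0.69 and, without SCR replicate 1, -0.44. SLC38A2, which carries neutral amino acids, had 9725, 8608, 4200.3 and 8102 in SCR and 3453 to 3557 in silenced libraries (-1.06, SE 0.23). Of the fits that left out 1 library, only that without SCR replicate 3 took it past limma's adjusted threshold (adjusted p = 0.00805). Of 15 genes of serine and 1-carbon metabolism, 2 were lower (GPT2 and PSPH), with a median of -0.56. Of 20 cytosolic aminoacyl tRNA synthetases, 3 were lower (WARS, GARS and IARS), with a median of -0.42, and IARS no longer lay outside the SCR range with either other scaling. The glycyl tRNA synthetase GARS had 36164, 32491, 17074 and 24369.9 in SCR and 14482 to 15557 in silenced libraries (-0.81, SE 0.21). The 17 mitochondrial synthetases had a median of 0.04, with CARS2 higher and TARS2 lower, the latter not with either other scaling. Of 23 NRF2 targets, 4 were lower (ME1, PGD, NQO1 and TALDO1), with a median of -0.59 and, without SCR replicate 1, -0.28. In ME1 the nearest libraries were almost equal, at 1630.0 in SCR replicate 3 and 1628.8 in siPOLR1D2 replicate 1.

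The unfolded protein response was the list in which SCR replicate 1 differed most. All 24 tested members had a negative log2 fold change, 8 were lower in all silenced libraries with and without SCR replicate 1 (against 4.17% and 5.88% of all genes), and none was higher. The median was -0.89 with SCR replicate 1 and -0.32 without it. HSPA5, HYOU1, HSP90B1 and CALR were chosen after their values were seen. HSPA5 (BiP), the main chaperone of the ER, had 62198 in SCR replicate 1, 14831, 7757 and 7139 in SCR replicates 2 to 4, and 6896 to 7419 in silenced libraries. SCR replicate 4 lay within the range of the silenced libraries, so HSPA5 is not among the genes outside the SCR range. HYOU1, another ER chaperone, had 52239, 9141, 4247 and 4299.9 in SCR and 3729 to 4721 in silenced libraries. Of the members that were lower, XBP1 had 2848, 1963, 1168 and 1570.1 in SCR and 878 to 1026 in silenced libraries (-0.89, SE 0.23), and -0.67 (SE 0.16) without SCR replicate 1. HSP90B1 had 125155, 34691, 36875 and 35941 in SCR and 28675 to 33144 in silenced libraries (-0.69, SE 0.37), and -0.23 (SE 0.08) without SCR replicate 1. CALR had 91290.0 in SCR replicate 1, 31471 to 36882 in the other SCR libraries and 24936 to 29123 in silenced libraries. ATF6, PDIA3, PDIA4, DNAJC3 and SEL1L were the other 5. HSP90B1 and SEL1L overlapped under either other scaling, and the other 6 did not.

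Promoters are shown for 5 members of these lists, chosen after their values were seen, that were highest in SCR replicate 1 and hold a match to a motif of their pathway. Other members also hold a match. The windows are from RefSeq (GRCh38.p14), run 5′ to 3′ from 250 bases before to 50 after the start of the gene, and the match is in capitals. For CHAC1 it is the C/EBP-ATF composite element, searched as TGATGNAA on both strands. For the others it is the ER stress response element, searched as CCAAT and CCACG separated by 9 bases on both strands.
CHAC1, chr15:40953221-40953520, strand +: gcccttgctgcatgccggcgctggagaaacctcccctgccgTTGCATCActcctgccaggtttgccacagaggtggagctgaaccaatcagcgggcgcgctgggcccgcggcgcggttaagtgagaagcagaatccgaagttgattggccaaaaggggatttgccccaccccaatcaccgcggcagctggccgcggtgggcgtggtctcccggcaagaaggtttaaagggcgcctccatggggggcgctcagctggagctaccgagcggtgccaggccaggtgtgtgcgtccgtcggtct
XBP1, chr22:28800520-28800819, strand -: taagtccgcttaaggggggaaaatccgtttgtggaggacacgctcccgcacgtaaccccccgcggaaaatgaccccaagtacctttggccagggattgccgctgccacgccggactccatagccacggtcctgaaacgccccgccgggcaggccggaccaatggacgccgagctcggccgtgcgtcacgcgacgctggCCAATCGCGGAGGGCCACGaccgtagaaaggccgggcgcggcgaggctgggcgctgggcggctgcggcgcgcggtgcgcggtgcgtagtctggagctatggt
HSP90B1, chr12:103930160-103930459, strand +: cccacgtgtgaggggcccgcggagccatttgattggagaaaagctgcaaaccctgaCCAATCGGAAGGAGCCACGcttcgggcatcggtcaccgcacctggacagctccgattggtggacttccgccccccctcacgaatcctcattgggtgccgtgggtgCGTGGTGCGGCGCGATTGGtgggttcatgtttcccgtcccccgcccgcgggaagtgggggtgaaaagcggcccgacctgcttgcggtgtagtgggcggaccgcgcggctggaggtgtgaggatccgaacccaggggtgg
CALR, chr19:12938359-12938658, strand +: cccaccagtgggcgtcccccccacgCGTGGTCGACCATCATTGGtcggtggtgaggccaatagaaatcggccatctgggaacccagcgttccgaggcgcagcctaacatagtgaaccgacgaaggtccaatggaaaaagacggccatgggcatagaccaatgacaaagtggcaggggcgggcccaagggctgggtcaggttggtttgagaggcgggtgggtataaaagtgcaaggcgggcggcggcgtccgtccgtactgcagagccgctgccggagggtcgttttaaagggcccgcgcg
HSPA5, chr9:125241294-125241593, strand -: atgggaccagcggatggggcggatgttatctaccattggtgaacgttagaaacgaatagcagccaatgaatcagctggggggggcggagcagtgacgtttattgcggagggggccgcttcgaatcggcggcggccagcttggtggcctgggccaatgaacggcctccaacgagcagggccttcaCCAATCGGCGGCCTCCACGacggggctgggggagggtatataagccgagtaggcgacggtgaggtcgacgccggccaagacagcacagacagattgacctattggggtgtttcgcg

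The composite element was found in 1270 of 35116 windows of 300 bases (3.62%) and, in the integrated stress response, in 5 of 28 windows, which belong to 5 of 17 genes (ATF3, CEBPG, CHAC1, JDP2 and PPP1R15B). The ER stress response element was found in 27 windows (0.0769%). These included 10 of the 29 windows of the unfolded protein response, which belong to 8 of its 23 genes with a window (CALR, CANX, CRELD2, ERO1B, HSP90B1, HSPA5, PDIA6 and XBP1), and none of the integrated stress response list. HSP90B1 holds 2 matches, 1 on each strand. A match describes the letters of the window and not binding.

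**Figure D3:**
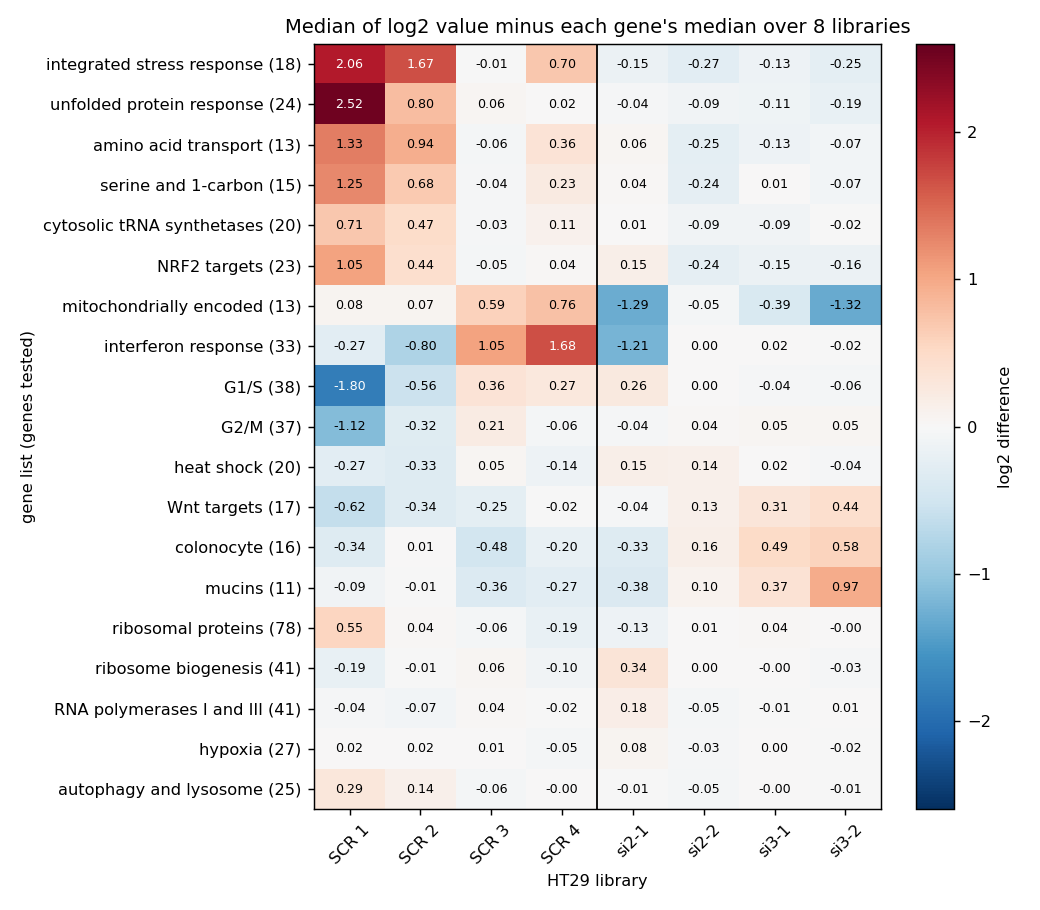
Median over the tested genes of 19 lists of the log2 value minus each gene's own median over the 8 HT29 libraries, in a column per library and with the number of genes in brackets. The unfolded protein response stands at 2.52 in SCR replicate 1 and at 0.02 in SCR replicate 4, and the interferon response at 1.68 in SCR replicate 4 and -1.21 in siPOLR1D2 replicate 1.

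Cell cycle genes had the opposite pattern among the SCR libraries. None of 38 tested G1/S genes lay outside the SCR range. Their median log2 fold change was 0.48 with SCR replicate 1 and 0.02 without it, and 35 of 38 were positive. The list stood at -1.80 in SCR replicate 1, -0.56 in SCR replicate 2 and between -0.06 and 0.36 in the other 6 libraries. MCM2 and TYMS were chosen after their values were seen. MCM2, a subunit of the replicative helicase, had 358, 1635, 3189.6 and 3000.2 in SCR and 2437 to 3319 in silenced libraries. Thymidylate synthase (TYMS) had 154, 903, 1659 and 1493 in SCR and 1237 to 1511 in silenced libraries. Of 37 G2/M genes, the mitotic kinases AURKA and PLK1 were higher in all silenced libraries, against 2.72% of all genes, and the median was 0.36 with and 0.10 without SCR replicate 1. AURKA had 2848, 3436, 4848 and 3699 in SCR and 4934 to 5725 in silenced libraries (0.58, SE 0.15), which overlapped with upper quartile scaling. SCR replicate 1 was thus high in ER chaperones and low in genes of DNA replication.

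By the size of the gap to the nearest other SCR library, and among genes with a mean value of 100 or more, LAMP3, CLGN, AGR2, NUCB2, SYNE1 and ERO1B were the genes in which SCR replicate 1 was farthest above. AGR2, a protein disulfide isomerase of secretory epithelium, had 22029 in SCR replicate 1, 1485 to 1759 in the other SCR libraries and 1269 to 1444 in silenced libraries. CLGN, an ER chaperone, had 1189.6 in SCR replicate 1 and 16.4 to 90.5 in the other SCR libraries. The genes in which it was farthest below were RPL3P4, ZRSR2P1, AC005154.5, CLDN2, CYP3A7 and HELLS. RPL3P4 and ZRSR2P1 are pseudogenes that share sequence with their parent genes, so their values are uncertain, and with AC005154.5 they were listed at 0 in SCR replicate 1. HELLS, a chromatin remodelling helicase of proliferating cells, had 293 in SCR replicate 1 and 1812, 4210.4 and 3652 in SCR replicates 2 to 4. Silenced libraries had 3027 to 3952. CLDN2, a claudin of tight junctions, had 28.4 against 199, 421 and 445.

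**Figure D4:**
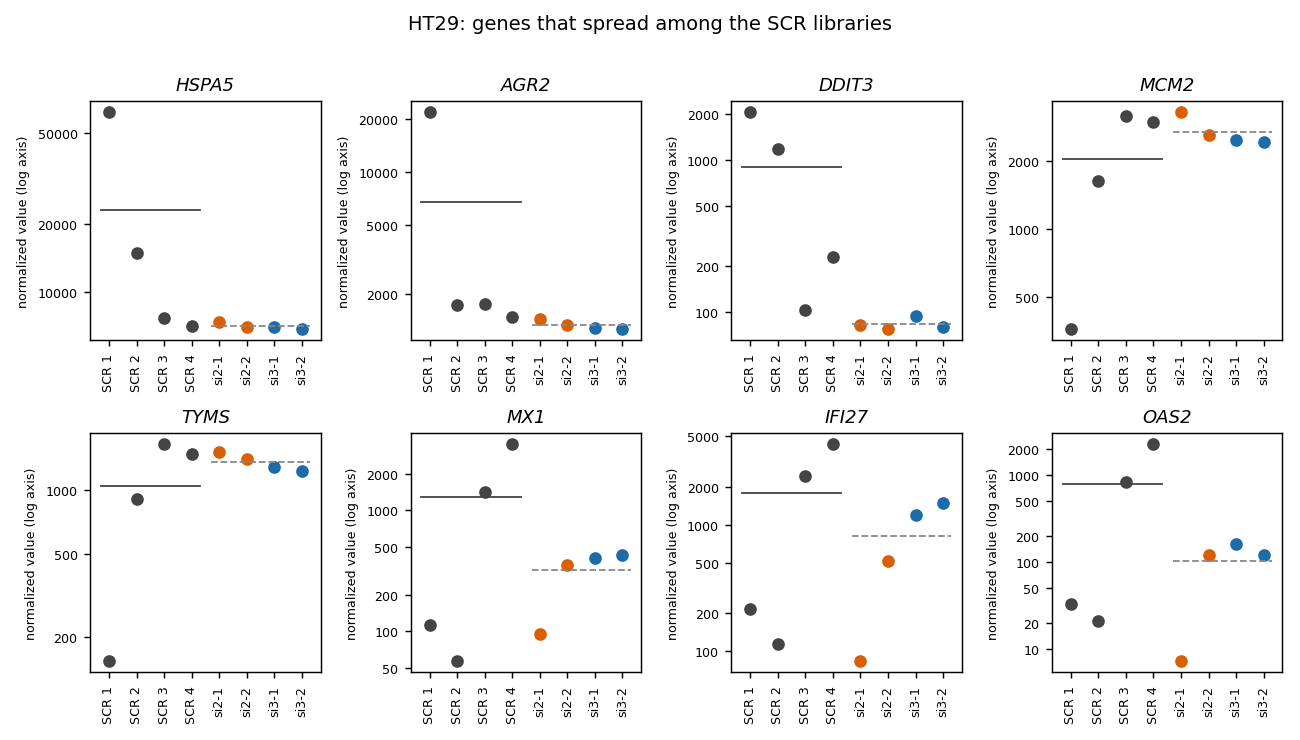
Normalized values (log axis) of 8 genes in each HT29 library, with colours and lines as for the genes outside the SCR range. SCR replicate 1 is high in HSPA5 (62198), AGR2 (22029) and DDIT3 (2061) and low in MCM2 (358) and TYMS (154), while SCR replicates 3 and 4 are high in MX1 (1416 and 3525), IFI27 and OAS2.

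Interferon response genes divided the SCR libraries in another way. The list of 33 stood at -0.27 and -0.80 in SCR replicates 1 and 2, at 1.05 and 1.68 in SCR replicates 3 and 4, at -1.21 in siPOLR1D2 replicate 1 and between -0.02 and 0.02 in the other silenced libraries. MX1 and OAS2 were chosen after their values were seen. MX1, an antiviral GTPase, had 112, 56.5, 1416 and 3525 in SCR, 94.8 and 355 in siPOLR1D2, and 404 and 423 in siPOLR1D3. OAS2, a sensor of double-stranded RNA, had 33.1, 20.7, 836 and 2272 in SCR and 7.17 to 161 in silenced libraries. The groups overlapped in both genes, and SCR replicates 3 and 4 were above every silenced library. Of the 33 genes, 3 were lower in all silenced libraries (STAT2, APOL6 and SLFN5), against 4.17% of all genes. The count was also 3 without SCR replicate 1 (5.88% of all genes), with upper quartile scaling (2.12%) and with quantile normalization (3.37%). The median of the list was -0.72, with 31 negative. STAT2 had 703, 448, 520.3 and 594 in SCR and 312 to 399 in silenced libraries (-0.72, SE 0.16). SLFN5 had 2869.9, 827, 697 and 1088 in SCR and 274 to 473 in silenced libraries (-1.56, SE 0.40).

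Of 13 RNAs encoded by the mitochondrial genome, 8 were lower in every silenced library, against 4.17% of all genes, and none passed limma's adjusted threshold. The count was also 8 without SCR replicate 1 (5.88% of all genes) and with quantile normalization (3.37%), and it was 1 with upper quartile scaling (2.12%). These RNAs are cut from shared precursors and are not independent. All 13 had a negative log2 fold change, with a median of -1.13 as deposited, -1.04 with upper quartile scaling and -1.08 with quantile normalization. MT-ND4, a subunit of respiratory complex I, had 2139, 2205, 2678 and 3198 in SCR, 754 and 1657 in siPOLR1D2, and 1361 and 692 in siPOLR1D3 (-1.27, SE 0.28). MT-CYB had 1543 to 2659 in SCR and 532 to 1312 in silenced libraries (-1.29, SE 0.31), and MT-ND4L and MT-ND6 had log2 fold changes of -1.38 and -1.26. The list stood at 0.08, 0.07, 0.59 and 0.76 in SCR replicates 1 to 4. Libraries of the same siRNA differed, with the list at -1.29 in siPOLR1D2 replicate 1, -0.05 in replicate 2, and -0.39 and -1.32 in siPOLR1D3. Together they held 0.09% to 0.15% of the summed values in SCR and 0.04% to 0.09% in silenced libraries. The part of RNA quality or of capture in this difference was not tested.

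Among the higher genes with a mean value of 100 or more, the widest gap was in KIAA1211, which had 67.4, 58.7, 66.3 and 71.1 in SCR, and 128, 176, 135 and 179 in silenced libraries (1.21, SE 0.18). TXNIP, an arrestin domain protein that restrains glucose uptake, had 134 to 153 in SCR, 199 and 559.5 in siPOLR1D2, and 622 and 565 in siPOLR1D3 (1.62, SE 0.33). Of the fits that left out 1 library, only that without siPOLR1D2 replicate 1 took it past limma's adjusted threshold (adjusted p = 0.00251). Its paralog ARRDC4 was also higher (11.4 to 18.0 in SCR and 27.6 to 43.1 in silenced libraries), as 1 of 2 among 5 arrestin domain genes, against 2.72% of all genes. EPPK1, which encodes the keratin-binding protein epiplakin, had 1718 to 2643 in SCR and 3517 to 4032 in silenced libraries (0.81, SE 0.13). GLI2, a transcription factor of Hedgehog signalling, had 37.9 to 88.0 in SCR and 120.2 to 198 in silenced libraries (1.38, SE 0.29). TMEM64, HNF4A, ANKRD13B, TNNI3, ATF5, KALRN, ZFPM1 and USP43 completed the 12 genes, with log2 fold changes between 0.59 and 1.21. CLCA4, a gene of differentiated colonocytes with a mean value under 100 and a wider gap, had 4.99 to 9.78 in SCR and 21.8 to 44.9 in silenced libraries. It is named as 1 of the 10 genes with the smallest p and is not in the colonocyte list, but it passed the minimum for testing only through the silenced libraries, so it had to differ and no fold change is given.

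Of 16 tested colonocyte genes, 4 were higher (HNF4A, HSD11B2, DPEP1 and SULT2B1), against 2.72% of all genes, and none was lower. The median was 0.56 and 0.50 without SCR replicate 1. HNF4A, a nuclear receptor of gut and liver epithelium, had 117, 274, 182 and 268 in SCR, 434 and 380.3 in siPOLR1D2, and 504 and 545 in siPOLR1D3 (1.21, SE 0.27). HSD11B2, which inactivates cortisol, had 21.9 to 40.3 in SCR and 65.7 to 77.5 in silenced libraries (1.29, SE 0.24). The log2 fold change was negative in 5 of the 16, which were KRT20, CEACAM1, CEACAM5, CEACAM6 and LGALS4, chosen after their values were seen. Without SCR replicate 1 KRT20 turned from -0.16 to 0.15 and LGALS4 from -0.29 to 0.18. CEACAM5 and CEACAM6, adhesion molecules of the epithelial surface, had -1.31 and -0.87, and without SCR replicate 1 -0.54 and -0.65. CEACAM5 had 532, 277, 34.9 and 24.7 in SCR and 29.2 to 61.4 in silenced libraries. LGALS4, a galectin, had 7256 in SCR replicate 1, 1627 to 2539 in the other SCR libraries and 1499.8 to 2810.0 in silenced libraries. CEACAM1 was lower in every silenced library without SCR replicate 1. The list stood at -0.34, 0.01, -0.48 and -0.20 in SCR, -0.33 and 0.16 in siPOLR1D2, and 0.49 and 0.58 in siPOLR1D3, so that siPOLR1D2 replicate 1 lay within the SCR range. Of 11 tested mucins, 1 was higher (MUC12), against 2.72% of all genes, with a median of 0.20 and, without SCR replicate 1, 0.52. The count was 2 without SCR replicate 1 (4.25% of all genes) and 2 with upper quartile scaling (4.14%). MUC12, a membrane-bound mucin, had 6.05, 8.48, 38.6 and 41.1 in SCR, and 60.1, 72.3, 129 and 159 in silenced libraries (2.42, SE 0.62).

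Of 17 tested Wnt targets, 4 were higher (AXIN2, ZNRF3, EPHB2 and PROX1) and none lower, against 2.72% and 4.17% of all genes, with a median of 0.44 and 0.25 without SCR replicate 1. AXIN2, a feedback inhibitor of the pathway, had 1291, 1937, 2072 and 2307 in SCR, 2619 and 2973 in siPOLR1D2, and 3529 and 3767 in siPOLR1D3 (0.78, SE 0.19). LGR5, a stem cell receptor chosen after its values were seen, had 139, 387, 855 and 781 in SCR, 675 and 1512 in siPOLR1D2, and 1418 and 1387 in siPOLR1D3, so only siPOLR1D2 replicate 1 overlapped. EPHB2 was separated by a narrow margin that was lost with upper quartile scaling. Of 20 heat shock genes, 4 were higher (HSPA1A, HSPA1B, HSPH1 and BAG3), also against 2.72%, with a median of 0.31 and 0.12 without SCR replicate 1. HSPH1, a cochaperone of HSP70, had 7604, 8341, 13522 and 11178 in SCR and 14829.6 to 17321 in silenced libraries (0.70, SE 0.18). HSPA1A and HSPA1B are nearly identical, so their values are uncertain, and HSPA1A overlapped with upper quartile scaling.

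Of 41 tested subunits and factors of RNA polymerases I and III, only POLR1D itself was lower and GTF3A higher, against 4.17% and 2.72% of all genes, and the median was 0.08. These counts are as deposited. With upper quartile scaling 1 was lower and 4 were higher, against 2.12% and 4.14% of all genes, and the median was 0.17. Of 41 genes of ribosome biogenesis, LYAR and NOP14 were higher and none was lower, against 2.72% and 4.17% of all genes. Neither was higher with upper quartile scaling, and the median of the list was 0.16. WDR74, which was lower, is not in that list. None of 78 ribosomal protein genes lay outside the SCR range. Their median was -0.10 and 72 were negative, but it was 0.05 without SCR replicate 1 and 0.00 with either other scaling. Of 20 p53 targets, only MDM2 was lower and none was higher, against 4.17% and 2.72% of all genes, and the median was 0.09. MDM2 had 1451 to 1777 in SCR and 1080.2 to 1404 in silenced libraries (-0.32, SE 0.12), which overlapped with upper quartile scaling. None of 27 hypoxia genes and none of 25 autophagy genes lay outside the SCR range, with medians of 0.03 and -0.18 that were -0.04 and -0.02 without SCR replicate 1.

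Of 23 genes downstream of ERK signalling, DUSP6, KLF6 and ETV5 were lower and SPRY4 was higher (against 4.17% and 2.72% of all genes here and for the lists that follow), the last not with quantile normalization, with a median of -0.05. DUSP6, a phosphatase of ERK, had 485, 346, 286 and 314 in SCR and 181 to 245 in silenced libraries (-0.81, SE 0.19). Of 9 tested EGF ligands and receptors, BTC was lower, though not with upper quartile scaling, and the median was -0.17 and, without SCR replicate 1, -0.03. Of these 9, 6 were negative and 3 positive. The ligands AREG and EREG, chosen after their values were seen, had log2 fold changes of -1.57 and -1.39, with overlapping groups. Without SCR replicate 1 these were -1.07 and -1.12. Of 28 genes of sterol synthesis, INSIG2, CYP51A1 and SC5D were lower, of which only INSIG2 was so with upper quartile scaling, and the median was -0.05. Of 20 genes of epithelial or mesenchymal identity, the mesenchymal genes LGALS1 and ANXA1 were lower, and the median over both kinds was -0.07. Upper quartile scaling moved the median of all genes to 0.09, and with it the medians of the ERK, sterol and identity lists to 0.04, 0.04 and 0.02. Of 18 genes of the RNA interference machinery and RNA decay, DDX6, a helicase of processing bodies, was higher, with 3112 to 3269.6 in SCR and 3892 to 4813 in silenced libraries (0.50, SE 0.10), and the median was 0.02. A list of 45 genes that the study chose on these same libraries had 23 lower and 6 higher genes, which is not independent evidence of direction. MUC12 and MORN4 are among them, and MORN4, which passed the minimum for testing only through the SCR libraries, had 17.9 to 95.8 in SCR and 2.49 to 7.25 in silenced libraries.

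Between siPOLR1D2 and siPOLR1D3, limma called 0 of 13274 genes (0%), with 207 at an unadjusted p under 0.05 and a smallest adjusted p of 0.9995. With 2 libraries each this does not show that the siRNAs act alike. Of 9587 genes with a mean value of 100 or more, the 2 siRNAs were separated in 3658, so separation alone was common. Among these, the largest differences were in TTN, IFITM1, IFI6, IFI27, UBE2L6 and DOCK11, of which IFI6 and IFI27 are in the interferon response list. TTN, which encodes the muscle protein titin, had 2019 and 240.0 in siPOLR1D2, 37.6 and 33.2 in siPOLR1D3 and 15.3 to 54.9 in SCR. IFI27 had 83.6 and 518 in siPOLR1D2 and 1185 and 1481 in siPOLR1D3, against 215.9, 114.6, 2434.1 and 4336.4 in SCR. DOCK11 had 32.5 and 199 in siPOLR1D2 and 326 and 421 in siPOLR1D3, against 51.1 to 68.4 in SCR. IFITM1 had 0.0 and 31.0 in siPOLR1D2 and 44.8 and 73.3 in siPOLR1D3, against 8.3, 1.1, 193.3 and 506.4 in SCR. IFI6 had 8.9 and 59.4 in siPOLR1D2 and 137.4 and 227.3 in siPOLR1D3, against 37.6, 31.3, 411.5 and 1267.5 in SCR. UBE2L6 had 2.3 and 40.0 in siPOLR1D2 and 48.1 and 78.0 in siPOLR1D3, against 41.8, 10.1, 224.4 and 566.4 in SCR. In each of these genes, on the log2 scale, the 2 siPOLR1D2 libraries differed from each other by more than the siPOLR1D3 libraries did. In IFITM1, IFI6, IFI27 and UBE2L6 the SCR libraries had a wider range than the silenced libraries.

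The response was tested against that of SW480 as an interaction over all 20 libraries. Of 12724 genes, 5 passed the adjusted threshold (0.0393%), with 1092 at an unadjusted p under 0.05. This count was 9 without HT29 SCR replicate 1, 14 without SCR replicate 3 and 1 without siPOLR1D3 replicate 1. CAMK2N1, an inhibitor of CaM kinase II, had a log2 fold change of 0.71 in HT29 and -1.79 in SW480 (adjusted p of the difference 0.0163 from limma). The lysosomal protease CTSH had 0.14 in HT29 and 1.70 in SW480 (0.0227), and GCOM1, a locus that overlaps neighbouring genes so that its reads are uncertain, had -0.14 and -1.56 (0.0157). LSM14A and SAR1B had 0.14 and 0.07 in HT29 and 1.03 and 1.12 in SW480. None of the 5 lay outside the SCR range in HT29. None of the HT29 genes with the widest gaps that could be tested passed, and the nearest was KIAA1211, with 1.21 in HT29 and -0.65 in SW480 (adjusted p of the difference 0.0939 from limma). The mitochondrially encoded RNAs had a median of -1.13 in HT29 and 0.07 in SW480, and MT-ND6 had an adjusted p of the difference of 0.198 from limma. For the integrated stress response the medians were -1.52 and -1.15.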

How the data were processed

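RNA of the 20 libraries was enriched for coding transcripts with exome capture probes before sequencing. Per the labels, the authors used FastQC 0.11.5, kallisto 0.44.0 and DESeq2 1.24.0 with build hg38. The deposited signal values are kallisto estimated read counts that the authors divided by size factors, separately for each cell line. They are not whole numbers, so a count test was not used, and reads per library were estimated from the most frequent low values. Values sharing a gene name were summed, and 1 was added before taking log2. Genes at 10 or more in at least 4 HT29 libraries were tested with limma 3.58.1 in R 4.3.3 (mean-variance trend, Benjamini-Hochberg adjustment, threshold 0.05), a procedure tested on simulated data. The interaction with SW480 also required 10 or more in at least 6 SW480 libraries. Members and lists were chosen with earlier results of these data known. Genes with a mean value of 100 or more were named for the widest gap between groups (12 in each direction). With the same limit, others were named for SCR replicate 1 (6 above and 6 below) and for the siRNAs (6). Without that limit, genes were named for the 10 smallest p. Also without it, up to 4 genes per list were named for the largest differences among its members outside the SCR range. Other genes were chosen after their values were seen. Libraries left out, pseudocounts, filters, scalings, weights and a replicate block were tried as alternatives.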

Additional observations from a re-analysis of the deposited data

Results flagged for a closer look

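Within the 4 SCR and the 4 silenced libraries, each named gene that was tested, other than AREG, EREG, LONRF1 and SP5, was searched for 1 library standing apart. Such a library lay farther from the others than Dixon's limit. Chance does this in about 1 in 20 groups. Many of the genes were named because a library stood apart in them or after their values were seen, so the number found is not compared with chance. SCR replicate 1 stood apart from the other SCR libraries in AGR2 (22029.3), CALR (91290.0), HSP90B1 (125155.5), KRT8 (78841.4), PDIA3 (116326.2), PDIA6 (18622.2), USP43 (156.5) and ZRSR2P1 (0.0), and in its sum of values (21.1 M). SCR replicate 4 stood apart in CTSH (3877.4). Among the silenced libraries, siPOLR1D2 replicate 1 stood apart in CAMK2N1 (63.3), CLGN (3.7), DDX6 (3892.1), LGR5 (674.6), MX1 (94.8), OAS2 (7.2), PDIA6 (5803.7), POMP (19935.9), SLC1A4 (108.6) and TXNIP (199.3). For siPOLR1D2 replicate 2 this was the case in CDH1 (14705.1) and LAMP3 (1.5), for siPOLR1D3 replicate 1 in LGALS1 (90.7) and for siPOLR1D3 replicate 2 in UBOX5 (81.2).

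The response to silencing differed between SW480 and HT29 by limma's interaction term, with Benjamini-Hochberg adjusted p over all genes tested, in CAMK2N1 (adjusted p = 0.01631), CTSH (adjusted p = 0.0227), GCOM1 (adjusted p = 0.01565), LSM14A (adjusted p = 0.03827) and SAR1B (adjusted p = 0.02431).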

How the results depend on the processing

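No gene passed limma's adjusted threshold as deposited, and 0 to 1 did with 1 library left out. That gene was SLC38A2 without SCR replicate 3 and TXNIP without siPOLR1D2 replicate 1. It was 4 when all 20 libraries shared a fit (LONRF1, MORN4, SLC1A4 and SP5). The same replicate number did not mark libraries that deviated together (correlations of -0.007, 0.034, -0.129 and -0.018 between SCR and silenced libraries), so the numbers were not used to pair them. With the replicate block, which leaves SCR replicates 3 and 4 without a silenced partner, 735 genes passed (417 lower and 318 higher), and POLR1D had a log2 fold change of -0.80 (adjusted p = 0.0404 from limma). POLR1D ranged from -0.78 to -0.63 with 1 library left out.

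The number of lower genes ranged from 664 to 1151 with 1 library left out, and that of higher genes from 462 to 966. Lower and higher genes numbered 282 and 550 with upper quartile scaling, 985 and 784 with siPOLR1D2 alone, and 1529 and 1401 with siPOLR1D3 alone. Further fits were chosen after seeing the data. Lower and higher genes numbered 1681 and 1233 without SCR replicates 1 and 2, and 1333 and 1189 without SCR replicate 1 and siPOLR1D2 replicate 1, where 1 gene (TXNIP) passed limma's threshold. Fewer libraries make such counts larger by construction. The difference between siRNAs had 0 genes past limma's threshold in each alternative run, against 207 at an unadjusted p under 0.05 as deposited. The difference from SW480 had 5 genes, 1 to 14 with 1 library left out, 3 with upper quartile scaling, 9 with quantile normalization, 3 without trend and 179 with array weights, and the cause was not tested.

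Log2 fold changes were recomputed for the named genes that were tested, other than POLR1D (given above), AREG, EREG, LONRF1 and SP5. Of 2877 such values, 2740 kept their direction and their side of the threshold. Another 62 newly passed it (57 with the replicate block) and 75, in 29 genes, changed sign. None of these had passed limma's threshold, and the cause was not tested. With 1 library left out, the ranges that crossed 0 were AC005154.5 from -0.81 to 1.87, ACTA2 from -0.0284 to 0.49, EPCAM from -0.0926 to 0.0270, IFI27 from -1.32 to 0.43, IFITM1 from -2.42 to 0.36, KRT20 from -0.32 to 0.15, KRT8 from -0.0665 to 0.0591, LGALS4 from -0.54 to 0.18, LYZ from -0.0084 to 0.19, MX1 from -1.58 to 0.40, PAN3 from -0.0730 to 0.0838, RPL3P4 from -0.0655 to 3.01, SAR1B from -0.0275 to 0.21, SYNE1 from -0.74 to 0.68, USP12 from -0.0160 to 0.14 and ZRSR2P1 from -0.41 to 2.23. The sign changed with array weights in AC005154.5 -0.34, KRT20 0.15, KRT8 -0.0858, LGALS4 0.31, PAN3 -0.0242, SYNE1 0.32 and USP12 -0.0554, with upper quartile scaling in EPCAM 0.0602, with quantile normalization in EPCAM 0.0466, with siPOLR1D2 alone in EPCAM 0.0176 and PAN3 -0.0295, with siPOLR1D3 alone in IFI27 0.89, IFI6 0.15, IFITM1 0.65, KRT8 -0.0533, SAR1B -0.0382 and USP12 -0.0416, and with the replicate block in IFI27 1.74, IFI6 0.90, IFITM1 2.05, MX1 1.78, OAS2 1.29 and UBE2L6 0.31. Without SCR replicates 1 and 2 it changed in AC005154.5 -1.35, ACTA2 -0.10, CDH1 0.0358, CEACAM5 0.53, CLGN 0.0003, CRELD2 0.0264, ERO1B 0.78, HELLS -0.23, KRT20 0.27, KRT8 -0.0526, LGALS4 0.35, LNX2 0.0618, LYZ -0.12, MCM2 -0.20, PAN3 -0.0215, RPL3P4 -0.72, SYNE1 0.58, TYMS -0.22, USP12 -0.0792 and ZRSR2P1 -0.13. Without SCR replicate 1 and siPOLR1D2 replicate 1 it changed in AC005154.5 -0.62, ACTA2 -0.0533, CLGN 0.0044, EPCAM 0.0046, KRT20 0.16, KRT8 -0.13, LGALS4 0.37, PAN3 -0.0491, POMP -0.0020, SYNE1 0.53 and TYMS -0.0014.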
